A study of Bos taurus with 12 samples.

Results

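The genes of the secretory pathway, of vesicle fusion and of RAB-guided traffic were compared between laser-captured epithelium and stroma of the bovine mammary gland. Members were chosen by a rule on gene symbols, which was set with earlier results of these data known. The rule takes probe sets with exactly 1 gene symbol that begins with SEC, SRP, SSR, STX, VAMP, RAB or ARF followed directly by a digit, or that is SAR1A, SAR1B, ARCN1, COPA, COPB1, COPB2, COPE, COPG1, COPG2, COPZ1 or TRAM1. This took 149 of the 24016 probe sets other than controls. They stand for 106 of the 9155 genes with a probe set of 1 symbol, namely 18 genes of translocation into the endoplasmic reticulum, 10 of COPII coats, 13 of COPI coats and ARF GTPases, 19 SNAREs and 44 RAB GTPases with their effectors and regulators. The remaining 2, SEC14L1 and SEC14L2, encode lipid-binding proteins whose symbols fit the rule.

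Tissue came from 6 pregnant, non-milking Holstein cows 3 weeks before calving, and every explant of both groups was cultured for 2 h with insulin, hydrocortisone and the thymidine analog BrdU before freezing. The labels record lactation number 3 for cow 1, 2 for cow 2 and 1 for the other 4 cows, which the methods call multiparous. Epithelial cells and intralobular stroma of each cow were collected by laser capture, lysates of several sections were pooled, and the amplified RNA was hybridized to a Bovine GeneChip, giving 6 epithelium and 6 stroma arrays. Per the methods, stroma was captured away from blood vessels and obvious immune cells to enrich fibroblasts.

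A secreted protein such as a casein enters the endoplasmic reticulum through the SEC61 channel, guided by the signal recognition particle. It leaves in COPII-coated vesicles, while COPI coats, recruited by ARF GTPases, carry material back to the reticulum and between Golgi cisternae. RAB GTPases choose the membrane to which a vesicle docks, and SNARE proteins, among them syntaxins and VAMPs, drive fusion with it. In the mammary alveolus this route releases milk protein into the lumen, and in fibroblasts it exports collagen and other matrix proteins.

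All values were log2 RMA values, and each difference is stroma minus epithelium within cow. RMA values of different probe sets are not on a common scale, so genes were compared by their differences and not by their levels. The array medians lay between 2.95 and 3.08, and a fold is inexact where a tissue mean falls below that range. In bulk captures, fewer cells of a type and less RNA per cell cannot be told apart.

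The captures carried the markers of their labels, with 9 of 9 luminal epithelial markers higher in epithelium and 8 of 8 fibroblast markers higher in stroma (limma, adjusted P under 0.05). The mean over the luminal markers ran from 7.68 to 8.80 in epithelium and from 4.59 to 6.42 in stroma. That over the fibroblast markers ran from 9.64 to 10.4 in stroma and from 3.43 to 6.14 in epithelium. Both thus lay above the array medians in the other tissue too, and carry-over between captures was not tested. Stroma also held other cells. The mean over the 7 endothelial markers ran from 4.78 to 7.12 on the stroma arrays and from 2.23 to 2.60 on the epithelium arrays, and VWF, a defining marker, averaged 3.42 in stroma. The mean over the 5 measured plasma cell markers ran from 6.10 to 8.58 in stroma and from 2.68 to 4.02 in epithelium, and JCHAIN, which joins secreted immunoglobulin, averaged 11.4 in stroma. The others averaged 11.9 (IGHM), 6.68 (POU2AF1), 3.92 (MZB1) and 3.65 (CD79A) there. Plasma cells are dense in secretory machinery, and the part of these cells in the results below was not tested. The added poly-A control RNAs were bright on the stroma arrays of cows 4, 5 and 6, where their mean was 9.07 to 10.99, against 4.15 to 7.10 on the stroma arrays of the other cows and 3.07 to 6.58 in epithelium.

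Of the 106 genes, 71 were bright enough to be tested, and 4 were expressed at a greater level in epithelium while 0 were higher in stroma. The 4 were RAB3IP (13.9-fold), SEC63 (3.47-fold), SAR1B (3.12-fold) and ARCN1 (2.96-fold), 1 gene each of the RAB, translocation, COPII and COPI groups. Among all 5222 genes tested, 241 (4.62%) passed with the higher value in epithelium and 234 (4.48%) with the higher value in stroma, so the share of members called in epithelium, 5.63%, lay near that background. At an unadjusted P under 0.05, limma gave 13 members (18.3%) with the higher value in epithelium, near the 14.6% of all genes, and 0 with the higher value in stroma, against 8.39% of all genes. The count of members called in stroma was 0 in each of the 17 alternative fits as well.

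Most members nevertheless had lower mean values in stroma. The difference was negative for 55 of 71 members (77.5%), with a median of -0.38, against 3133 of 5222 genes (60.0%) and a median of -0.20 over all genes tested. The median over all genes varied with the brightness filter. It was -0.32 over the 2863 genes of the brightest 5000 probe sets, which held 61 of the 71 members, and 0.006 with no filter. Among the brightest 5000, the group medians were -0.91 for COPI and ARF genes and between -0.39 and -0.20 for the other 4 groups. The median over members was negative within each cow and ran from -0.79 in cow 4 to -0.09 in cow 6. The median over all genes was likewise negative within each cow, from -0.26 in cow 5 to -0.03 in cow 2. Cow 6 was also the only cow in which the members' median lay above that of all genes, which was -0.20 there. When array medians over the tested probe sets were set to a common value (centring), the median of all genes moved to -0.02, and the calls over all genes changed from 241 and 234 to 177 higher in epithelium and 264 higher in stroma. The numbers of negative differences fell to 46 of 71 members and 2675 of 5222 genes. The group medians stayed negative after centring, at -0.73 for COPI and ARF genes and between -0.20 and -0.12 for the other 4 groups.

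**Figure D1:**
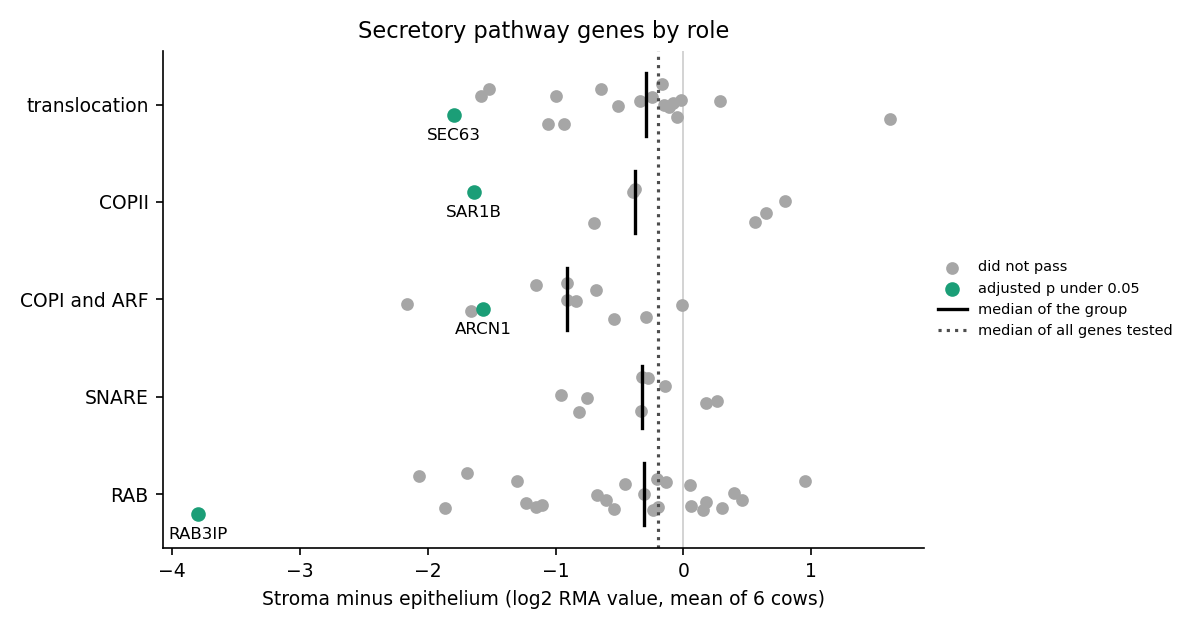
Each point is 1 tested gene of the 5 role groups, placed by its stroma minus epithelium difference (log2 RMA units, averaged over 6 cows) in the row of its role, with called genes in green. Short black lines are group medians, the dotted line is the median of all genes tested (-0.20), and the COPI and ARF row lies wholly to the left of 0 (10 of 11 genes after centring) with a median of -0.91.

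Within the translocation group, SEC63 passed the test and no other gene did. All 18 genes were tested and the group median was -0.29, and 16 had negative differences, though 10 did after centring. SEC63 encodes a membrane protein of the translocon that brings the chaperone BiP to the channel. Its values ran from 6.03 through a median of 6.27 to 8.00 in epithelium and from 3.91 through 4.72 to 5.97 in stroma. Every epithelium array thus lay above every stroma array, although by a narrow margin, and cow 1 differed little, at 6.03 against 5.97. The difference was -1.80 ± 0.47 (SE, n = 6 cows, adjusted P = 0.0462). A further tested probe set of SEC63 gave -2.07 ± 0.57 and missed the threshold at adjusted P = 0.0544. The call of SEC63 was lost in 12 of 17 alternative fits, including those without cow 2, 3, 4, 5 or 6, where the adjusted P ran from 0.0884 to 0.111.

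The 5 measured protein subunits of the signal recognition particle, which halts and targets ribosomes with a signal peptide, all had negative differences, with a median of -0.93. Their mean over each array was 6.04 ± 0.42 (SD, n = 6) in epithelium and 5.17 ± 0.80 in stroma, and it was lower in the stroma of 6 of 6 cows. SRP9, which with SRP14 pauses elongation, came closest to the threshold. Its values ran from 5.55 through 6.14 to 6.89 in epithelium and from 2.99 through 4.30 to 6.34 in stroma, so that the tissues overlapped while all 6 cows had the lower value in stroma. The difference was -1.58 ± 0.43 (adjusted P = 0.0543). Without cows 4, 5 and 6 it was -0.91 (adjusted P = 0.437). SRP19 differed by -1.06 (adjusted P = 0.249), SRP72 by -0.93 (0.245) and SRP68 by -0.64 (0.251), whereas SRP14 differed by -0.15 with a 95% interval from -1.56 to 1.26. A further tested probe set of SRP72 gave -1.82 (adjusted P = 0.239).

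The 11 translocon genes had a median of -0.16, close to the -0.20 of all genes tested, and their mean over each array was lower in the stroma of 3 of 6 cows. The small channel subunits SEC61B and SEC61G differed by -0.34 and -0.11. The interval of SEC61G, -1.22 to 0.99, leaves a difference in either direction possible. The pore subunit SEC61A1 differed by 0.28 (adjusted P = 0.669). Its relative SEC61A2 had the largest positive difference of all members, 1.61 ± 1.03 (adjusted P = 0.386), with epithelium values from 2.94 through 7.67 to 8.79 and stroma values from 5.05 through 8.85 to 11.5. Both tissues spread widely and overlapped, and the other 3 tested probe sets of SEC61A2 gave 0.71, 0.09 and -0.02.

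Among the translocon-associated SSR proteins, SSR4 differed by -0.997 (adjusted P = 0.208), SSR2 by -0.24 and SSR3 by -0.05. SSR1 had 3 tested probe sets, of which the brightest gave -0.51 and the others -1.27 and -1.28 (adjusted P = 0.0948 and 0.128). TRAM1, which guides the nascent chain into the membrane, differed by -0.08. SEC62 differed by -0.16 by its brightest probe set and by 0.72 by a further one (adjusted P = 0.852 and 0.462). Of the catalytic subunits of signal peptidase, which removes the signal peptide, SEC11A differed by -1.52 ± 0.49 (adjusted P = 0.0948) and was lower in the stroma of 5 cows, and SEC11C differed by -0.02 with an interval from -0.91 to 0.87.

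**Figure D2:**
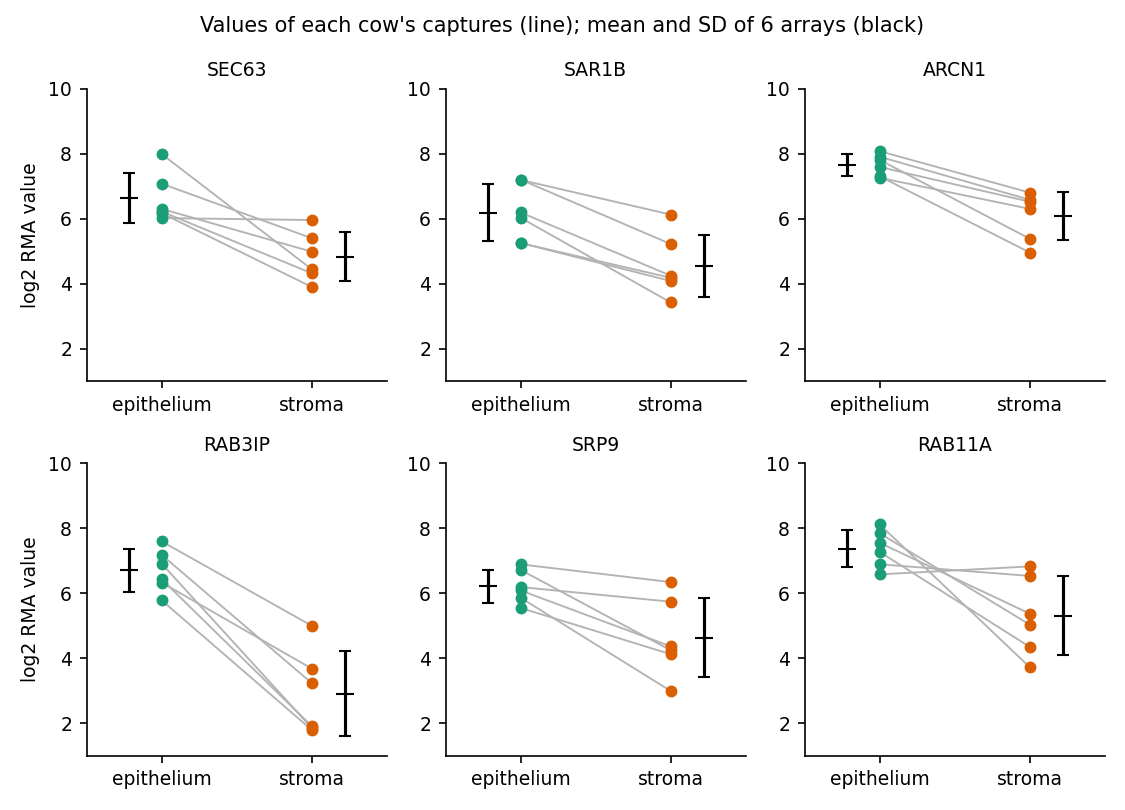
Log2 RMA values of the 4 called genes and of SRP9 and RAB11A, which just missed the threshold, with 1 grey line per cow from epithelium (green) to stroma (orange) and the mean and SD of the 6 arrays in black. All lines of RAB3IP, SAR1B and ARCN1 fall steeply, the SEC63 line of cow 1 is almost level, and the RAB11A line of cow 2 rises from 6.58 to 6.82.

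In the COPII group, SAR1B, the GTPase that starts assembly of the coat at exit sites of the reticulum, was higher in epithelium. Its epithelium values ran from 5.26 through 6.12 to 7.21 and its stroma values from 3.43 through 4.22 to 6.13. The tissues overlapped, since the stroma of cow 1 (6.13) exceeded the epithelium of cows 4, 5 and 6, but within each of the 6 cows epithelium was higher. The difference was -1.64 ± 0.36 (SE, adjusted P = 0.0244). The call was lost without the cow block (adjusted P = 0.0654) and without cow 1, 2, 3 or 4, where the adjusted P ran from 0.0534 to 0.0761. It was also lost without cows 5 and 6 (adjusted P = 0.0564) and without cows 4, 5 and 6 (0.159). The call held in 10 of 17 alternative fits. A further SAR1B probe set was too dim to be tested.

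The other tested COPII genes did not pass, and 4 of the 7 had negative differences, with a group median of -0.38. SAR1A, the close relative of SAR1B, ran from 4.43 through 6.34 to 8.29 in epithelium and from 4.44 through 6.43 to 6.76 in stroma, and it was higher in the epithelium of 3 of 6 cows. Its difference was -0.38 ± 0.56 (adjusted P = 0.725), with an interval from -1.64 to 0.88 that ends at the estimate for SAR1B. Whether the relatives differed from each other was not tested. Of the inner coat proteins that select cargo, SEC24B differed by 0.79 ± 0.43 (adjusted P = 0.309) and SEC24C by -0.70 ± 0.87 (adjusted P = 0.672). The outer coat genes SEC13 (0.65, adjusted P = 0.353) and SEC31A (0.56, adjusted P = 0.620) had positive differences, and SEC31A ran from 6.66 to 11.2 over the stroma arrays. SEC23IP, which binds the coat at exit sites, gave -0.39 by its brightest probe set and -1.42 (adjusted P = 0.0685) by a further one.

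**Figure D3:**
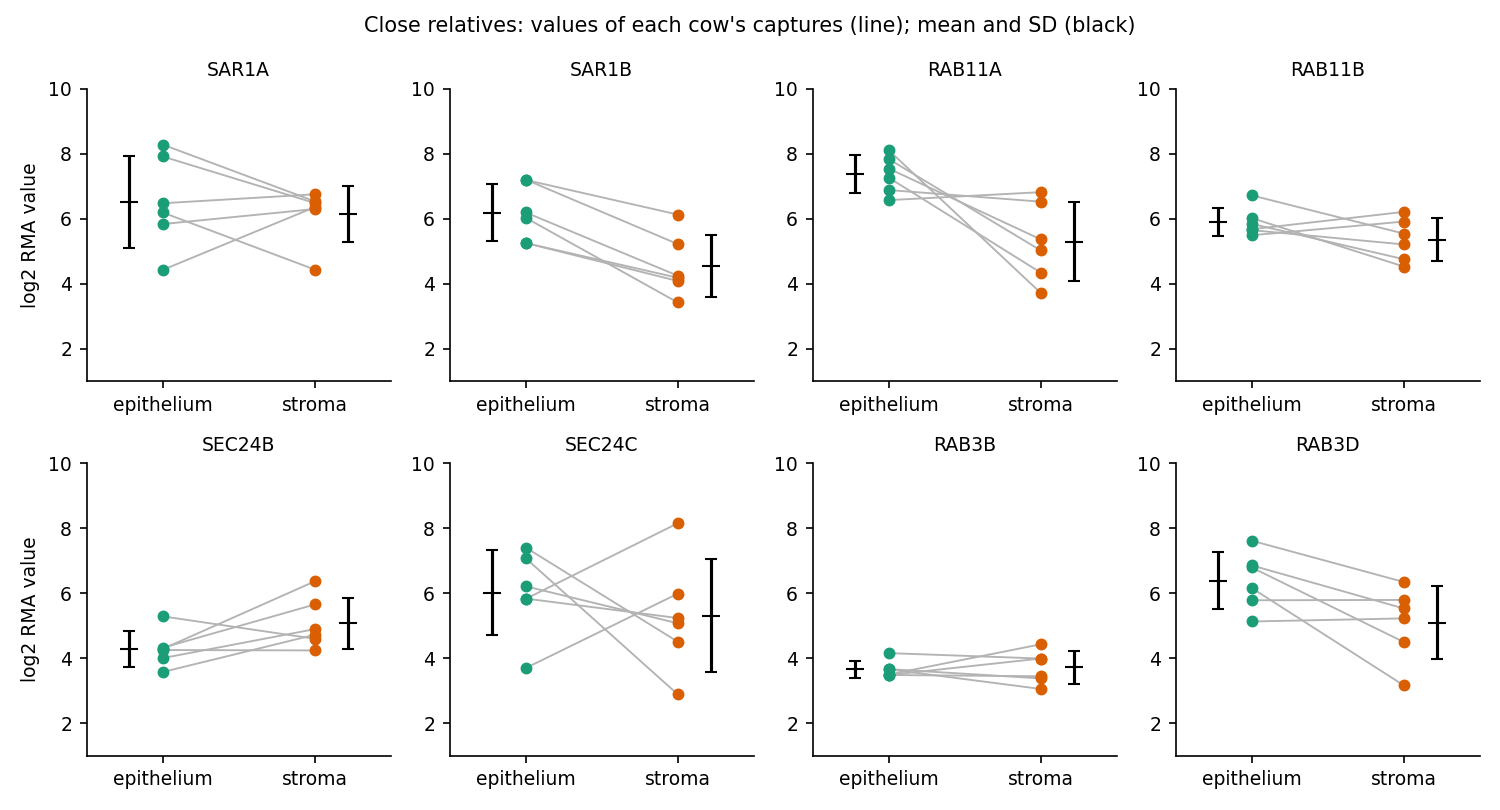
Log2 RMA values of 4 sets of close relatives, with 1 grey line per cow from epithelium (green) to stroma (orange) and the mean and SD of the 6 arrays in black. SAR1B falls in all 6 cows while SAR1A falls in 3, and RAB11A falls in 5 cows with a wider spread in stroma than RAB11B. Differences between relatives were not tested, and levels of different probe sets are not comparable.

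The COPI and ARF genes had the most one-sided differences of the 5 groups. All 11 tested genes had negative differences (10 after centring), with a median of -0.91, and the group median was negative in each of the 6 cows, from -1.26 in cow 1 to -0.15 in cow 3. The median over all genes was negative in each cow too, at -0.10 in cow 3. ARCN1, the delta subunit of coatomer, was the only one of the 11 genes called. It ran from 7.27 through 7.71 to 8.09 in epithelium and from 4.97 through 6.42 to 6.81 in stroma, without overlap. The difference was -1.57 ± 0.37 (SE, adjusted P = 0.0306). The stroma values of cows 5 and 6, 4.97 and 5.39, were the lowest, and without these cows the difference was -1.16 and no longer passed (adjusted P = 0.153). The call was also lost without cow 1, 2, 4, 5 or 6 alone, where the adjusted P ran from 0.0631 to 0.0815, and without cows 4, 5 and 6 (0.291). It held in 10 of 17 alternative fits.

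The other 6 tested coatomer subunits had differences from -1.15 to -0.54, none of which passed. COPB2 differed by -1.15 ± 0.57 (adjusted P = 0.261), COPG1 by -0.91 ± 0.44 (0.253), COPZ1 by -0.91 ± 0.77 (0.522) and COPA by -0.84 ± 0.44 (0.287). COPB1 differed by -0.69 ± 0.72 (0.613) and COPE by -0.54 ± 0.44 (0.497). For each of these 6 subunits at least 1 cow had the higher value in stroma. The mean over the 7 subunits, by contrast, was lower in the stroma of 6 of 6 cows, at 6.64 ± 0.36 (SD, n = 6) in epithelium and 5.70 ± 0.51 in stroma, a difference within cow of -0.94 ± 0.56.

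**Figure D4:**
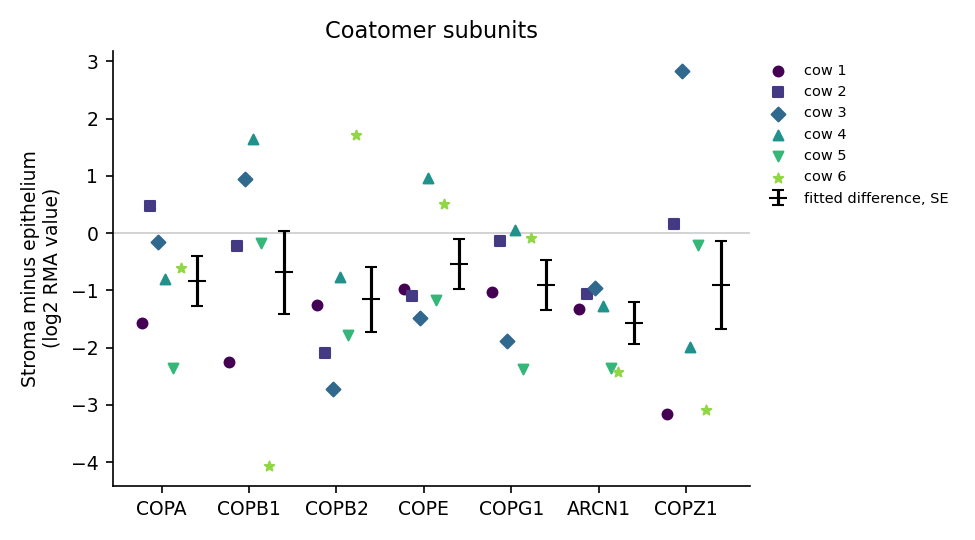
Stroma minus epithelium difference (log2 RMA value) of the 7 tested coatomer subunits in each cow, with the fitted difference and its SE in black. Points of ARCN1 lie below 0 in all 6 cows, those of the other subunits scatter on both sides of 0, and every fitted difference is negative, from -1.57 to -0.54.

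The ARF GTPases that recruit coatomer varied more. ARF3 ran from 6.60 through 8.15 to 9.01 in epithelium and from 3.86 through 6.17 to 7.97 in stroma, with 5 of 6 cows lower in stroma. Its difference of -2.16 ± 0.77 was the second most negative of all members but did not pass (adjusted P = 0.126). ARF2 differed by -1.66 ± 0.82 (adjusted P = 0.261). Each passed in 1 alternative fit, ARF3 without cow 1 (-2.87, adjusted P = 0.0469) and ARF2 without cow 3 (-2.50, adjusted P = 0.0437). ARF4 differed by -0.30. For ARF1 the brightest probe set gave -0.01, with an interval from -0.95 to 0.92, while a further one gave -1.44 ± 0.44, with stroma below epithelium in 6 of 6 cows (adjusted P = 0.0811). The probe sets of ARF1 thus disagreed in size. ARF genes are close in sequence, and whether a probe set of 1 ARF gene also measures another was not tested.

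No SNARE passed the test, and 7 of 9 tested SNAREs had negative differences, with a median of -0.32. STX6, a syntaxin of the trans-Golgi network, had the largest, -0.96 ± 0.42 (adjusted P = 0.205). It ran from 5.32 through 6.07 to 6.51 in epithelium and from 4.36 through 4.88 to 5.99 in stroma, and 5 of 6 cows were lower in stroma. SEC22B, which acts between reticulum and Golgi, differed by -0.81 ± 0.56 (adjusted P = 0.422), and STX5, its Golgi partner, by -0.76 ± 0.62 (adjusted P = 0.505). The endosomal syntaxins STX12, STX7 and STX8 differed by -0.32, -0.28 and 0.17.

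Of the VAMPs, which sit on the vesicle, VAMP2 differed by 0.26 (adjusted P = 0.809), VAMP3 by -0.15 and VAMP8, which acts in secretory exocytosis, by -0.33 with an interval from -1.71 to 1.04. A further VAMP8 probe set gave 0.24. VAMP3 covered nearly the same range in both tissues, 7.61 through 8.73 to 9.67 in epithelium and 7.84 through 8.67 to 9.53 in stroma. The syntaxins of the plasma membrane, STX2 and STX4, were among the 10 SNAREs too dim to be tested.

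The RAB group held the strongest call, that of a regulator, while no RAB GTPase passed in the main fit. RAB3IP, also known as Rabin8, is the exchange factor that activates RAB8 on vesicles bound for the apical membrane. Its values ran from 5.78 through 6.67 to 7.59 in epithelium and from 1.79 through 2.57 to 5.00 in stroma, so that the tissues did not overlap. The difference was -3.79 ± 0.43 (SE, n = 6 cows, adjusted P = 0.00102), or 13.9-fold. The stroma mean of 2.91 was below the array medians, so the fold is inexact. RAB3IP passed in all 16 alternative fits in which it was tested, with an adjusted P of at most 0.0334, and without cows 4, 5 and 6 its difference was -3.51.

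RAB3IP, SEC63 and ARCN1 were the 3 members (4.23%) with every epithelium array above every stroma array, against 2.97% of all genes tested. Over all 6 cows, 6 members (8.45%) had the higher value in epithelium throughout, near the 9.59% of all genes, and 1 (1.41%), RAB8B, had it in stroma throughout, against 6.99% of all genes.

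The 2 forms of RAB8, which RAB3IP activates, had differences of opposite sign, and neither passed. RAB8A ran from 6.33 through 6.76 to 7.92 in epithelium and from 3.23 through 5.99 to 7.54 in stroma, with a difference of -1.15 ± 0.69 (adjusted P = 0.356). A further RAB8A probe set also had a negative difference, which lay 0.76 from that value and did not pass. RAB8B ran from 2.50 through 5.10 to 6.01 in epithelium and from 2.60 through 6.19 to 7.20 in stroma, with a difference of 0.95 ± 0.42 (adjusted P = 0.214), and a further probe set gave 0.94. The low ends of both RAB8B ranges came from cow 5.

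RAB11A, which marks the recycling endosome and binds RAB3IP, was next to the threshold. It ran from 6.58 through 7.41 to 8.12 in epithelium and from 3.72 through 5.20 to 6.82 in stroma, and cow 2 alone had the higher value in stroma. Its difference was -2.07 ± 0.61 (adjusted P = 0.0720), and it passed without the cow block (adjusted P = 0.0230), with a random block (0.0185) and without cow 2 (0.0485). RAB11B differed by -0.54 ± 0.41 (adjusted P = 0.462), with an interval from -1.46 to 0.38, and the difference between RAB11A and RAB11B was not tested. RAB11FIP5, an effector of RAB11, differed by -0.20.

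The RABs of regulated exocytosis had differences of either sign, and none passed. RAB3D, found on secretory granules, ran from 5.13 through 6.48 to 7.62 in epithelium and from 3.17 through 5.38 to 6.35 in stroma, with 4 of 6 cows lower in stroma and a difference of -1.30 ± 0.49 (adjusted P = 0.145). RAB3B differed by 0.06 and stayed between 3.05 and 4.43 on all 12 arrays, close to the array medians, and RAB3A and RAB3C were too dim to be tested. RAB27A, which tethers granules at the plasma membrane, differed by 0.18 ± 0.36 (adjusted P = 0.808) by its brightest probe set and by 1.38 ± 0.69 (adjusted P = 0.267) by a further one, and RAB27B was too dim to be tested. RAB15, which only the grouping used here counted with these RABs, differed by -1.87 ± 0.91 (adjusted P = 0.256), with epithelium values from 2.53 to 7.50. Its role in this tissue was not tested.

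The 4 tested RABs of the reticulum and Golgi all had negative differences, with a median of -0.49. RAB2A differed by -1.10 ± 0.41 (adjusted P = 0.140), RAB1A, required for transport from reticulum to Golgi, by -0.68 ± 0.40 (0.341), RAB18 by -0.31 and RAB6A by -0.21. A further RAB6A probe set gave -1.14 (adjusted P = 0.168).

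Of the 12 tested endosomal and lysosomal RABs, 8 had negative differences, with a median of -0.35 and a range from -2.07 to 0.40, and their mean over each array differed by -0.51 ± 0.44 (SD, n = 6 cows), with cow 5 level at -0.00054 and the other 5 cows lower in stroma. RAB4A, of rapid recycling, differed by -1.69 ± 0.84 (adjusted P = 0.266), with stroma values spread from 1.71 to 8.59, and it passed in the fit without cows 5 and 6. RAB5A, of early endosomes, differed by -1.23 ± 0.53 (adjusted P = 0.204), RAB5B by 0.30 and RAB5C by 0.05. A further RAB5B probe set gave -0.49. The RAB5C values were tight, between 5.43 and 6.58 on all 12 arrays. RAB7A, of late endosomes, differed by -0.13 and RAB14 by 0.15.

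RAB12 differed by 0.45 ± 0.35 (adjusted P = 0.469) and was higher in the stroma of 5 of 6 cows. SEC14L1, which belongs to none of the role groups, differed by 0.48 (adjusted P = 0.709).

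**Figure D5:**
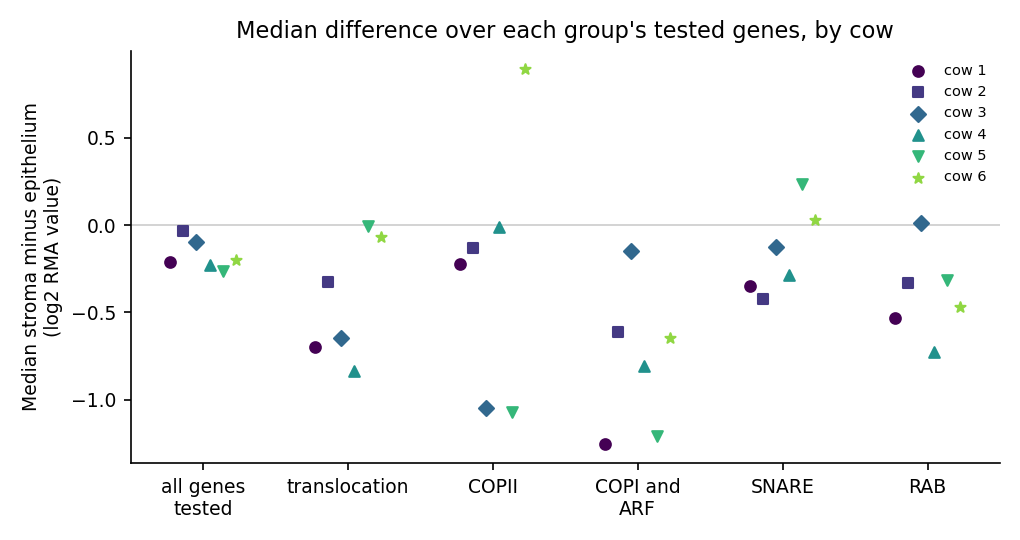
Median stroma minus epithelium difference (log2 RMA value) over the tested genes of each role group within each cow, 1 symbol per cow, beside the same over all genes tested. COPI and ARF medians lie below 0 in all 6 cows, as do those of all genes tested. COPII medians run from -1.07 in cow 5 to 0.89 in cow 6, and SNARE medians lie above 0 in cows 5 and 6.

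The remaining 35 members were too dim to be tested. They were 19 RAB genes, 10 SNAREs, 3 COPII genes, 2 COPI and ARF genes and SEC14L2. For 19 of them, every probe set had a mean below the lowest array median in both tissues, so no direction was read. SEC23A, the inner COPII coat subunit, was among the untested, and 1 of its probe sets reached 6.68 in the epithelium of cow 3 but at most 2.40 in that of the other cows. RAB3GAP1, a subunit of a complex that acts on RAB3 and RAB18, averaged 3.94 in epithelium and 2.96 in stroma. When all probe sets were tested, none of these 35 genes passed, and the lowest adjusted P was that of SEC16B, an organizer of exit sites (-1.57, adjusted P = 0.131).

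The pathway was also read from a list of 181 genes outside the symbol rule, of which 126 were on the array and 96 were tested. None was higher in epithelium by limma (adjusted P under 0.05) and 1 was higher in stroma, against 4.62% and 4.48% of all genes tested. The median difference over the list was -0.43, against -0.20 over all genes. At an unadjusted P under 0.05, 9 (9.38%) had the higher value in epithelium and 4 (4.17%) in stroma, both below the shares of all genes, 14.6% and 8.39%. The medians were -0.50 for 23 tethers, -0.49 for 14 other SNAREs and fusion factors, -0.45 for 6 genes of signal peptidase and the SRP receptor, -0.44 for 20 cargo receptors and -0.29 for 15 Golgi clathrin adaptors. The 18 regulators of ARF and RAB GTPases had a positive median, 0.45, with 11 positive and 7 negative differences. Their median within cow was -0.33 in cow 1, -0.20 in cow 2 and 0.12 in cow 3. It was 0.65, 1.39 and 0.44 in cows 4, 5 and 6, whose stroma arrays had the bright poly-A controls. The gene called was DENND4A of this last list, an exchange factor for RAB10, which ran from 2.31 through 3.43 to 4.12 in epithelium and from 4.49 through 5.54 to 5.94 in stroma, without overlap. Its difference was 2.02 ± 0.42 (SE, adjusted P = 0.0193), or 4.06-fold, and without cow 2 it no longer passed (1.94, adjusted P = 0.0638).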

How the data were processed

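RNA from laser-captured epithelium and stroma of 6 cows was measured on 12 Bovine GeneChip arrays after NuGen WT Ovation Pico amplification. The authors deposited log2 RMA values, quantile normalized across 24 arrays that include these 12. Precision is limited by the number of arrays and by signal near background. The insulin and hydrocortisone concentrations are given in mg per ml in the labels and in µg per ml in the methods.

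The members and gene lists were chosen with earlier results of these data known. Of 24128 probe sets, 112 controls were left out, 13292 had 1 symbol in the platform annotation, 86 had several and 10638 had none, and 13263 symbols were matched by gene ID to RefSeq with 0 changed. The brightest 41.8% of the 24016 probe sets by mean over the arrays were tested, which matches the number the authors retained by detection calls (the calls themselves were not used). The lowest mean kept was 3.57. Stroma was compared with epithelium by limma 3.58.1 in R 4.3.3 (with data.table, version 1.17.8), with cow as a fixed block, and Benjamini-Hochberg adjustment over all tested probe sets at 0.05. The brightest tested probe set with 1 symbol stands for its gene. The same animal gave both captures of a replicate number, which sets the pairs, and deviations of paired captures from their tissue means correlated at 0.0257 to 0.201 across probe sets. The fit was tested on simulated data.

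Cell type marker lists were those of luminal epithelium, fibroblasts, endothelium, plasma cells, macrophages (0 of 4 tested called) and myoepithelium (2 of 5 higher in stroma). Genes named were all called members, the 2 largest differences of each group in each direction, members whose probe sets disagree, the COPII, RAB3, RAB11 and RAB27 relatives and called genes of the pathway list. Other genes are given to account for the members and were chosen after their values were seen.

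Alternatives were no cow block, a random cow block, an intensity trend with robust prior, all probe sets unfiltered, the brightest 5000, those above the array median on 8 arrays, quantile normalization again, centring, each cow left out, cows 5 and 6 left out, averaging of a gene's tested probe sets, and, for medians, the mean. Leaving out cows 4, 5 and 6 was added after seeing the data. The deposited table names no genome build, and no sequence was used here.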

Additional observations from a re-analysis of the deposited data

Results flagged for a closer look

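Of 62 sets of 6 arrays checked (31 named genes in 2 tissues), 7 held an array set apart from the others by more than the 95% critical value of Dixon's test, and chance alone sets apart about 1 in 20 such sets. RAB8B was low in both captures of cow 5, at 2.497 in epithelium, where the other cows ran from 4.88 to 6.007, and at 2.598 in stroma, where they ran from 6.019 to 7.204. RAB12 was low in both captures of cow 3, at 6.892 in epithelium against 7.538 to 7.746 and at 6.545 in stroma against 7.966 to 8.676. SAR1A was low in the stroma of cow 5, at 4.443 against 6.306 to 6.759. SEC61A2 was low in the epithelium of cow 2, at 2.943 against 6.742 to 8.789. RAB3B was high in the epithelium of cow 5, at 4.156 against 3.483 to 3.664.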

How the results depend on the processing

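The count of members higher in epithelium was 4 with cow as a block and 4 with no replicate block, where RAB11A passed and SAR1B did not. It was 1 to 3 when 1 cow was left out, 2 without cows 5 and 6 and 1 without cows 4, 5 and 6, where RAB3IP alone passed. The calls over all genes in epithelium fell in the same fits, from 241 to between 118 and 191 with 1 cow left out, 115 without cows 5 and 6 and 38 without cows 4, 5 and 6. No fit called a member higher in stroma. The pathway list gave 2 genes higher in epithelium with a random block, 0 to 1 when 1 cow was left out and 2 with the mean over probe sets. It gave 0 higher in stroma among the brightest 5000 probe sets, where DENND4A was not tested, 0 to 1 when 1 cow was left out, 0 without cows 5 and 6 and 0 without cows 4, 5 and 6. Without cows 5 and 6 the median difference was -0.72 for translocation genes and -0.60 for SNAREs, and without cows 4, 5 and 6 it was -0.70 for SNAREs. With no filter the SNARE median was -0.044. For RAB genes it was -0.67 without cow 3, the farthest of the values from -0.67 to -0.31 with 1 cow left out, and the mean in place of the median was -0.60. The COPII median ran from -0.79 without cow 6 to -0.0037 without cow 4. No called gene changed direction. Of the genes that did not pass, the positive difference turned negative for VAMP2 without cow 6 (-0.25) and without cows 5 and 6 (-0.16), for STX8 without cow 4 (-0.02), cow 5 (-0.20), cows 5 and 6 (-0.25) and cows 4, 5 and 6 (-0.73), and for SEC31A without cow 4 (-0.0022). It also did so for RAB27A without cows 5 and 6 (-0.042) and cows 4, 5 and 6 (-0.19), for RAB3B without cow 3 (-0.03), cow 4 (-0.12) and cows 4, 5 and 6 (-0.13), and for SEC61A1 without cows 4, 5 and 6 (-0.0915). With 1 cow left out, VAMP2 ran from -0.25 to 0.55, STX8 from -0.20 to 0.58, SEC31A from -0.0022 to 1.03 and RAB3B from -0.12 to 0.19. Leaving out cows also leaves fewer arrays, and causes were not otherwise tested. With 6 cows, a difference that missed the threshold is not shown to be absent.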

Other observations

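A further probe set of RAB8B, which was not low in cow 5 (4.66 in epithelium and 4.43 in stroma), was lowest in both captures of cow 6, at 2.29 in epithelium and 2.24 in stroma, where the other cows ran from 3.64 to 5.33 and from 4.43 to 6.40. The brighter RAB8B probe set, low in both captures of cow 5, read 4.88 and 7.20 in cow 6. Each probe set of this gene was thus low in both captures of a different cow, while both gave a difference close to 0.95 between the tissues.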
